A study of Mus musculus with 23 samples.

Results

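The 10 genes described here encode secreted growth factors and the receptors through which stroma and tumor cells signal to each other: the PDGF ligands *Pdgfa*, *Pdgfb*, *Pdgfc* and *Pdgfd*, the PDGF receptors *Pdgfra* and *Pdgfrb*, the fibroblast growth factors *Fgf7* and *Fgf10*, hepatocyte growth factor *Hgf* and its receptor *Met*. They were chosen by name, from 24940 gene symbols listed in each table, and where a gene had several transcripts the one with the largest mean stood for it. All 10 passed the filters on low values in both tables, *Fgf10* in CAFs only through the LL2 libraries.

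PDGF dimers act on fibroblasts and on the mural cells of vessels. PDGF-A chains signal through PDGFRα, PDGF-B chains through both receptors, and PDGF-C and PDGF-D are secreted with a domain that proteases must remove before they bind. FGF7 and FGF10 are made by mesenchymal cells and act on epithelial cells that carry the IIIb form of FGFR2. HGF is likewise made by mesenchymal cells, as an inactive precursor, and MET is its only known receptor.

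RNA was sequenced from whole tumors of 5 models and from FAP+ CAFs of 4 of them. The tumors were grown from 500000 cells of a C57BL/6 derived line injected under the skin of adult female C57BL/6 mice, and no treatment was given. The lines were B16-F10 melanoma (B16), EO771.LMB breast cancer (EO771), LL/2 lung cancer (LL2), MC38 colon cancer and Pan02 pancreatic cancer. Each model is thus 1 cell line, and what is specific to the line cannot be told apart from what is specific to the cancer type. There were 3 tumors per model, 15 in all. CAFs, cancer-associated fibroblasts, were sorted from the CD45-negative fraction by surface FAP, a protease carried by many activated fibroblasts, in 2 rounds per model for EO771, LL2, MC38 and Pan02, 8 libraries in all. CT26 samples were not analysed here. The labels do not tie tumors or sorts to single animals, so p-values measure the spread between these samples, which may be technical in part.

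Tumor libraries held 10035173 to 21946486 counts on genes (median 16541399), and CAF libraries 6224280.5 to 19552751.5 (median 16228986). The CAF counts were recovered from the steps of their RPKM values, which gave totals of 9269958 to 22859926 reads. Replicate 2 of MC38 CAFs was the lowest by both measures. Summed over 10 fibroblast genes, CAFs held 1590 to 10580 RPKM (reads scaled by transcript length and library total, in tumors the normalized total over tested genes). In Pan02 this sum was lower in CAFs (2442 to 4041 RPKM) than in whole tumors (8816 to 9663). It was higher in CAFs in EO771 (9702 to 10580 against 797 to 1783) and LL2 (7275 to 8591 against 1217 to 2702). In MC38 the ranges overlapped (1590 to 7027 against 626 to 2608). The 9 leukocyte genes summed to 6.10 to 79.0 RPKM in CAFs against 207 to 2342 in tumors. Keratins were not absent from the sorted cells. *Krt8* was at 492 and 495 RPKM in EO771 CAFs, at 385 and 545 in Pan02 CAFs and at 84.2 and 90.5 in LL2 CAFs, but at 0.274 and 0.241 in MC38 CAFs. *Krt18*, its usual partner, was at 349 and 483 RPKM in Pan02 CAFs but at 0.729 and 1.40 in EO771 CAFs. *Fap* itself was at 1.89 and 3.28 RPKM in Pan02 CAFs, a range that overlapped the 2.07 to 5.33 of whole Pan02 tumors, whereas in the other 3 models every CAF library was above every tumor. The 2 MC38 CAF libraries were unlike each other, with *Col1a1*, the main fibrillar collagen chain, at 2771 and 467 RPKM. The part that the make-up of the sorted cells plays in the results below was not tested. In whole tumors, fewer cells of a type and less RNA per cell cannot be told apart.

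All 10 genes differed among the 5 tumor models at an adjusted p under 0.05 (edgeR, F test over models, Benjamini-Hochberg over 15722 genes), beside 91.1% of all genes tested, so passing this test did not set them apart. Between pairs of models they passed in 75 of 100 gene-by-pair tests, beside 54.6% for all genes. The ratio of the highest to the lowest model mean was 89.1 for *Fgf10*, 50.2 for *Hgf*, 45.8 for *Met*, 43.2 for *Fgf7* and 41.7 for *Pdgfra*, and it was lowest for *Pdgfb*, at 4.43. Below, tumor levels are CPM, counts scaled to a common library size after TMM normalization, log2 fold changes compare a model with the mean of the other 4, and the error of a fold change is its standard error (SE).

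**Figure D1:**
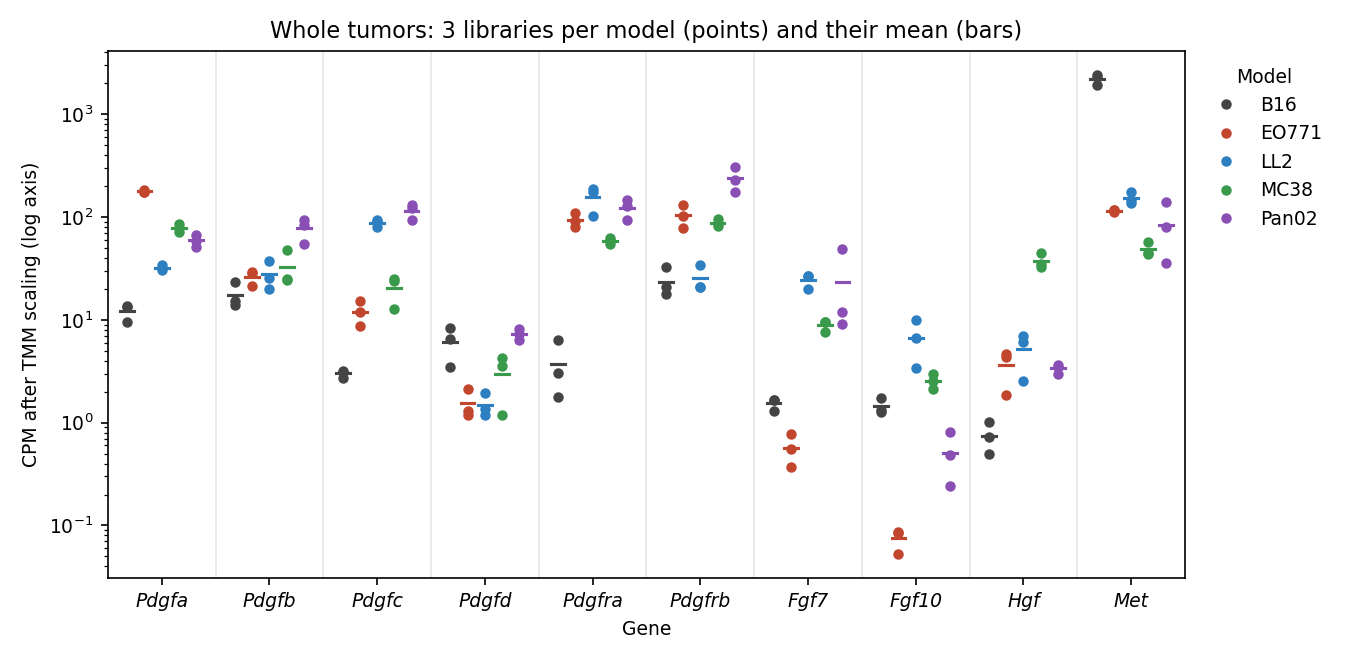
Level of the 10 genes in whole tumors, as CPM after TMM scaling on a log axis, with 3 tumors per model as points and their mean as a bar. *Met* in B16 tumors lies between 1942 and 2426 CPM, above every other tumor, and *Fgf10* in EO771 tumors lies below 0.1 CPM.

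*Met*, at chr6:17463957-17573980 on the plus strand of mm10, had the highest level of the 10 genes and the largest excess of a single model. It was at 2426, 2293 and 1942 CPM in the B16 tumors, between 35.6 and 177 CPM in the 12 other tumors. B16 tumors thus stood above all others without overlap, and *Met* was 4.59 ± 0.22 higher there on the log2 scale (adjusted p = 9.4e-10). By CPM it ranked 16th of all 24940 genes in B16 tumors, and by RPKM, which divides by transcript length, 131st. The melanocyte genes of the marker list, at 10770 to 13090 RPKM in sum, were likewise highest in B16 tumors, against 4.599 to 15.6 elsewhere.

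The other models were closer to each other. LL2 tumors had 136, 146 and 177 CPM of *Met*, EO771 tumors 111, 118 and 117, Pan02 tumors 139, 79.3 and 35.6, and MC38 tumors 57.1, 44.0 and 44.3. Neither LL2 and EO771 tumors (adjusted p = 0.33) nor EO771 and Pan02 tumors (adjusted p = 0.25) differed at the threshold, although LL2 and EO771 tumors did not overlap. *Met* was lower in MC38 tumors (log2 fold change -2.31 ± 0.30, adjusted p = 3.5e-05) and in Pan02 tumors (-1.30 ± 0.28, adjusted p = 0.0013, and -1.89 without Pan02 tumor 1). Since B16 is part of the mean of the other 4, these log2 fold changes carry its high level. The call in EO771 tumors (-0.74, adjusted p = 0.033) was lost when any of its 3 tumors was left out.

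The 250 bases before the RefSeq start site of *Met* (GRCm38.p6, chr6:17463707-17463956, plus strand) are shown because this gene had the largest excess in a single model. Capitals mark CACGTG, a palindromic E-box, and GGGCGG, a GC box, each searched on both strands; the motifs do not overlap.
Met: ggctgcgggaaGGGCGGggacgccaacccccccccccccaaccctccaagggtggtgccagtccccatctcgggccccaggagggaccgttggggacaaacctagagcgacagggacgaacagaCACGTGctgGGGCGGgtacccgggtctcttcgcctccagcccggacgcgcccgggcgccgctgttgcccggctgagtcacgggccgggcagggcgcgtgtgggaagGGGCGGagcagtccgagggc
CACGTG stands once, 126 bases before the start, and 6.02% of 32851 RefSeq windows of the same length hold it. GGGCGG stands 3 times, and 32.7% of windows hold it at least once. The window is 74.0% G or C, and 4.91% of windows hold as much. These matches describe the letters of the window and were not tested as sites.

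*Hgf* (chr5:16553495-16619439, plus strand) was the MC38 gene of the set. MC38 tumors had 34.7, 45.0 and 32.6 CPM, and no other tumor exceeded 6.90 CPM. Its log2 fold change was 3.82 ± 0.25 (adjusted p = 8.2e-08). LL2 tumors had 6.90, 2.56 and 6.04 CPM, EO771 tumors 1.85, 4.67 and 4.36, and Pan02 tumors 3.52, 3.002 and 3.66. No pair among these 3 models differed at the threshold. B16 tumors were below all others, at 0.491, 1.026 and 0.723 CPM (log2 fold change -3.14 ± 0.39, adjusted p = 1.1e-05). The models with the most receptor and the most ligand RNA were therefore different ones.

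*Fgf7* and *Fgf10*, which share a receptor, were both lowest in EO771 tumors. *Fgf10* was highest in LL2 tumors, and *Fgf7* in LL2 and Pan02 tumors, which did not differ from each other at the threshold (adjusted p = 0.90). *Fgf10* (chr13:118714699-118792573, plus strand) was at 9.99, 3.42 and 6.64 CPM in LL2 tumors and at 2.14 to 2.94 CPM in MC38 tumors. LL2 was above MC38 (adjusted p = 0.010), and no tumor of another model reached the lowest LL2 value. EO771 tumors had 1 count each, 3 in all, against 318.5 in LL2 tumors. The depth-scaled ratio of LL2 to EO771 was 89.7, with an exact 95% interval of 30.5 to 438 that covers counting error only, and a fitted fold change for EO771 (-4.57) depends on the prior count of the fit. Pan02 tumors had 5, 12 and 8 counts, and their ratio to EO771 was 6.76 (2.06 to 35.0). *Fgf10* was thus low in Pan02 tumors as well, with a log2 fold change of -1.23 ± 0.43 (adjusted p = 0.024) that no longer passed without tumor 1 (0.10) or tumor 3 (0.060).

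*Fgf7* (chr2:126034658-126091185, plus strand), also called keratinocyte growth factor, was at 27.0, 26.7 and 20.1 CPM in LL2 tumors. The Pan02 tumors had 48.8, 9.07 and 11.8 CPM. The Pan02 mean was carried by tumor 1: the log2 fold change of Pan02 was 2.64 ± 0.34 (adjusted p = 2.0e-05) with it and 1.46 (adjusted p = 2.8e-05) without it. LL2 tumors were close together (log2 fold change 2.74 ± 0.34, adjusted p = 3.0e-05). MC38 tumors had 7.67 to 9.56 CPM, B16 tumors 1.31 to 1.67 and EO771 tumors 0.371 to 0.784, from 6.5 to 9 counts each. EO771 was lower than the rest by the largest margin (-4.06 ± 0.57, adjusted p = 4.7e-05), and B16 was lower too (-2.23 ± 0.48, adjusted p = 0.0012). B16 and EO771 did not differ from each other at the threshold (adjusted p = 0.071), although their tumors did not overlap.

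The 250 bases before the start sites of both genes (GRCm38.p6, plus strand) are printed side by side because both genes were lowest in the same model. Capitals mark the same motifs as above.
Fgf7, chr2:126034408-126034657: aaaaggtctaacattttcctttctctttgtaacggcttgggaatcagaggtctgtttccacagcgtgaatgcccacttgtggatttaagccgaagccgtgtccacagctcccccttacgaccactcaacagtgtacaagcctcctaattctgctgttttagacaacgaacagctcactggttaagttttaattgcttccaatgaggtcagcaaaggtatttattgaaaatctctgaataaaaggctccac
Fgf10, chr13:118714449-118714698: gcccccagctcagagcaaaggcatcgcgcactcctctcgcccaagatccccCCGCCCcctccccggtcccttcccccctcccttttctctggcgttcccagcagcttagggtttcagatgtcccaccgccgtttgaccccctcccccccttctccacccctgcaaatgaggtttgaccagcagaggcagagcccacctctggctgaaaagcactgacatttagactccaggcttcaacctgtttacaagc
The *Fgf10* window holds GGGCGG once, on the other strand, 199 bases before the start, and the *Fgf7* window holds neither motif. They differ in composition, at 61.2% G or C for *Fgf10* and 43.6% for *Fgf7*, beside a median of 52.4% over all windows.

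Among the PDGF ligands, *Pdgfa* (chr5:138976972-138994953, minus strand) separated the models most cleanly. EO771 tumors had 176, 185 and 174 CPM, MC38 tumors 71.1, 86.0 and 77.5, and Pan02 tumors 67.5, 51.1 and 59.0. LL2 tumors had 30.3, 34.2 and 32.0 CPM, and B16 tumors 9.63, 13.7 and 13.4. All 10 pairs of models differed at the threshold, and no neighbours in this order overlapped. The log2 fold change was 2.28 ± 0.09 in EO771 tumors (adjusted p = 1.1e-09) and -2.55 ± 0.13 in B16 tumors (adjusted p = 1.5e-09). The smaller one in Pan02 tumors (0.29 ± 0.10, adjusted p = 0.027) did not pass under total-count scaling (0.15), without the filter on low counts (0.059) or without Pan02 tumor 1 or 3. Of the 3119 exon bases of *Pdgfa* over all its transcripts in the GENCODE annotation, 26.1% are shared with the antisense gene 6330403L08Rik. The libraries did not record strand, so reads of both genes cannot be told apart there. The values here are those of a RefSeq transcript of 1010 bases, for which the shared part was not computed.

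*Pdgfc* (chr3:81036416-81214040, plus strand), the ligand activated by removal of its CUB domain, was high in Pan02 and LL2 tumors. Pan02 tumors had 132, 123 and 92.7 CPM and LL2 tumors 93.9, 91.3 and 80.0, which did not differ at the threshold (adjusted p = 0.19). MC38 tumors had 24.0, 12.7 and 25.3 CPM, EO771 tumors 8.76, 11.97 and 15.4, and B16 tumors 2.70, 3.14 and 3.22. Both leading models stood above the other 3 without overlap, while MC38 and EO771 tumors overlapped (adjusted p = 0.018). All but MC38 were called, with a log2 fold change of 2.84 ± 0.17 in Pan02 (adjusted p = 1.6e-08), 2.36 ± 0.17 in LL2 (adjusted p = 1.9e-07), -1.24 ± 0.21 in EO771 (adjusted p = 0.00027) and -3.69 ± 0.26 in B16 tumors (adjusted p = 3.7e-08).

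*Pdgfb* (chr15:79995876-80014808, minus strand), the ligand that recruits pericytes, was a Pan02 gene. Pan02 tumors had 94.0, 83.9 and 55.2 CPM, and the highest value elsewhere was 48.0 CPM in MC38 tumor 3. It was called in both directions, with a log2 fold change of 1.61 ± 0.22 in Pan02 tumors (adjusted p = 3.2e-05) and -1.07 ± 0.27 in B16 tumors (adjusted p = 0.0032), which had 14.1, 23.3 and 15.2 CPM. EO771, LL2 and MC38 tumors lay between 20.1 and 48.0 CPM, overlapped, and did not differ from each other at the threshold.

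*Pdgfd* (chr9:6168486-6378845, plus strand) was the least abundant PDGF ligand per length in 4 of 5 models, B16 being the exception. Pan02 tumors had 8.11, 7.25 and 6.39 CPM and B16 tumors 6.53, 8.39 and 3.49, while MC38 tumors had 3.54, 1.19 and 4.28. LL2 and EO771 tumors lay between 1.19 and 2.14 CPM. It was higher in Pan02 (1.4995 ± 0.31, adjusted p = 0.00090) and in B16 tumors (1.19 ± 0.32, adjusted p = 0.0050), the only PDGF ligand that was higher in B16. It was lower in LL2 and EO771 tumors (adjusted p = 0.013 each). With 14 to 166 counts per tumor, the calls in B16, LL2 and EO771 were lost on leaving out single tumors of the model (B16 tumor 2, LL2 tumors 1 and 3, EO771 tumors 1 and 2).

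Per length, the 4 ligand genes made up different mixtures. In RPKM, *Pdgfa* held 93.2% ± 1.2 of the summed ligand RNA in EO771 tumors and 81.4% ± 5.8 in MC38 tumors (SD, n = 3). It held 48.0% ± 4.2 in LL2 tumors, where *Pdgfc* held 37.2% ± 1.5, and 49.2% ± 6.0 in Pan02 tumors, where *Pdgfc* held 27.0% ± 2.5 and *Pdgfb* 21.9% ± 3.6. In B16 tumors *Pdgfa* held 58.3% ± 5.7, *Pdgfb* 28.4% ± 3.2 and *Pdgfd* 9.16% ± 3.43. These shares describe RNA, not secreted or active protein.

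The PDGF receptors were lowest together in B16 tumors but had different leading models. *Pdgfra* (chr5:75152251-75198206, plus strand), which marks most fibroblasts, was at 1.77, 3.02 and 6.44 CPM in B16 tumors, against 54.2 to 188 CPM in all others. LL2 tumors had 177, 103 and 188 CPM, Pan02 tumors 93.2, 129 and 148, EO771 tumors 80.0, 91.8 and 110, and MC38 tumors 62.2, 54.2 and 60.5. Neighbours in this order did not differ at the threshold except MC38 and B16. The log2 fold change of B16 was -4.69 ± 0.35 (adjusted p = 7.9e-08), and -5.35 without B16 tumor 3. Those of LL2 (1.94 ± 0.22), Pan02 (1.52 ± 0.23) and EO771 (1.032 ± 0.23) all passed with B16 in the mean of the others. The summed fibroblast genes were lowest in B16 tumors as well, at 196 to 457 RPKM against 626 to 9663 elsewhere.

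*Pdgfrb*, which marks pericytes as well as fibroblasts, was highest in Pan02 tumors, at 309, 230 and 176 CPM (log2 fold change 2.30 ± 0.19, adjusted p = 3.1e-07). EO771 tumors had 77.7, 103 and 132 CPM and MC38 tumors 87.01, 82.7 and 95.4. The call in EO771 tumors (0.81 ± 0.20, adjusted p = 0.0044) was lost without its tumor 3 (0.054). LL2 tumors, which led for *Pdgfra*, had 34.1, 21.0 and 20.9 CPM, a range that overlapped the 17.7 to 32.3 CPM of B16 tumors (adjusted p = 0.79). The log2 fold change was -1.75 ± 0.24 in LL2 (adjusted p = 7.5e-05) and -1.87 ± 0.25 in B16 tumors (adjusted p = 1.8e-05). The mural genes summed to 151 to 424 RPKM in Pan02, 60.2 to 115 in LL2, 75.6 to 93.2 in EO771, 52.7 to 216 in MC38 and 56.8 to 81.6 in B16 tumors. Apart from Pan02 against LL2, EO771 and B16, these ranges overlapped, also those of LL2 with EO771 and MC38, which had more *Pdgfrb*.

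By model, the tests against the mean of the other 4 called 2 of the 10 genes higher and 7 lower in B16 tumors, where 31.9% of all genes were higher and 31.6% lower. In Pan02 tumors 7 were higher and 2 lower, beside 32.5% and 28.1%. EO771 tumors had 3 higher and 5 lower (27.2% and 27.0% of all genes), LL2 tumors 4 higher and 3 lower (23.3% and 18.9%), and MC38 tumors 3 higher and 1 lower (27.0% and 24.4%). The median size of the log2 fold change over the 10 genes was 2.39 in B16 tumors beside 0.62 for all genes, and 0.65 beside 0.47 in MC38 tumors, the model closest to all genes in this respect. Total-count scaling in place of TMM shifted the median of all genes by 0.14 in MC38 and by -0.11 in Pan02 tumors. The sign of every called fold change held under it, and *Pdgfd* in MC38 tumors, not called, went from -0.09 to 0.06.

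**Figure D2:**
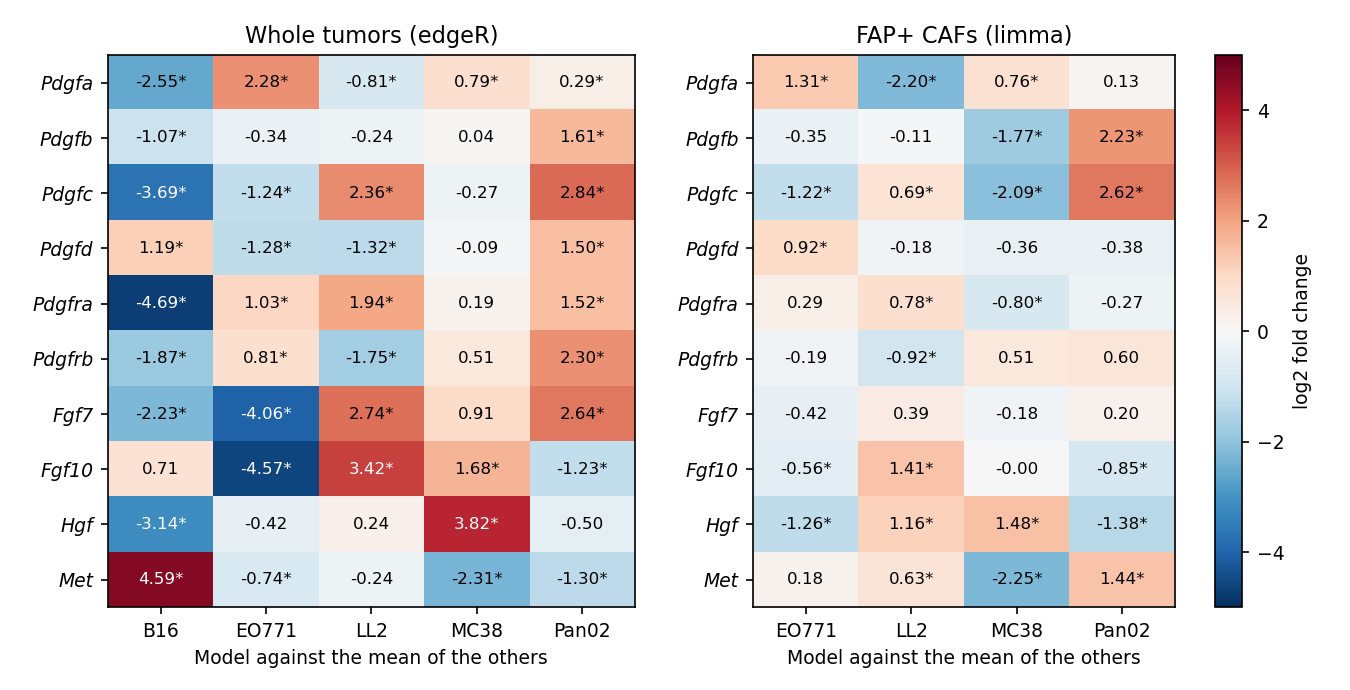
Log2 fold change of each gene (rows) in each model (columns) against the mean of the other models, for whole tumors (edgeR) and FAP+ CAFs (limma, log2(RPKM + 1)); an asterisk marks an adjusted p under 0.05. *Pdgfra* in B16 (-4.69) and *Fgf10* in EO771 tumors (-4.57, from 1 count per tumor) are the darkest blue cells, and *Met* in B16 tumors (4.59) the darkest red one.

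In FAP+ CAFs the values are RPKM, tested as log2(RPKM + 1), a scale that understates the change of low genes. Of the 10 genes, 8 differed among the 4 CAF models (limma, F test, adjusted over 13598 genes), beside 80.4% of all genes. *Fgf7* (adjusted p = 0.14) and *Pdgfd* (adjusted p = 0.10) did not pass. Between pairs of CAF models, 33 of 60 gene-by-pair tests passed, beside 48.1% for all genes. *Fgf10* counts among the 8 genes and for 4 of the 33 pair tests, although it passed the filter only through the LL2 libraries.

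**Figure D3:**
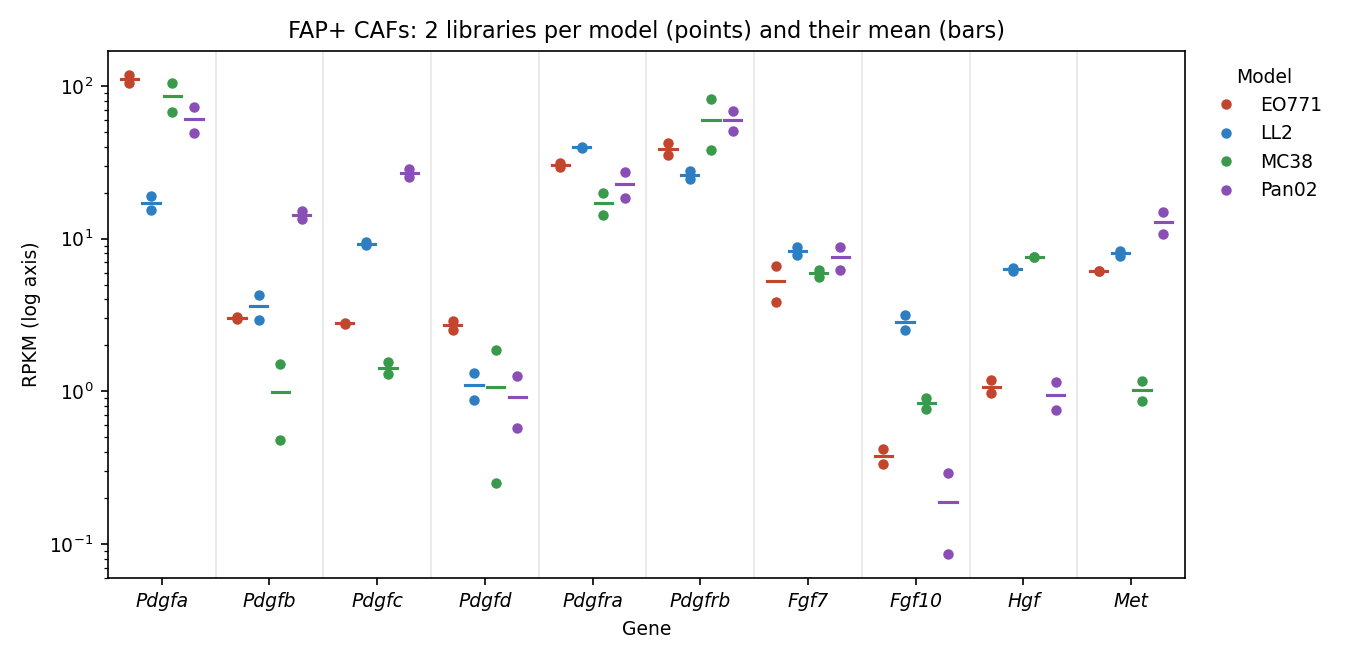
Level of the 10 genes in FAP+ CAFs, as RPKM on a log axis, with 2 libraries per model as points and their mean as a bar. *Fgf7* lies between 3.87 and 8.84 RPKM in all 8 libraries, whereas *Pdgfc* runs from 1.29 RPKM in MC38 to 28.6 in Pan02 CAFs.

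*Pdgfc* had the most distinct order of all in CAFs. Pan02 CAFs had 28.6 and 25.5 RPKM, LL2 CAFs 9.09 and 9.46, EO771 CAFs 2.82 and 2.78, and MC38 CAFs 1.55 and 1.29. All 6 pairs differed at the threshold, and the log2 fold change was 2.62 ± 0.11 in Pan02 CAFs (adjusted p = 3.8e-06) and -2.09 ± 0.11 in MC38 CAFs (adjusted p = 1.7e-05). Pan02 and LL2 also led for this gene in whole tumors.

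*Pdgfb* followed with 15.3 and 13.5 RPKM in Pan02 CAFs, against at most 4.26 RPKM elsewhere (log2 fold change 2.23 ± 0.21, adjusted p = 0.00015). MC38 CAFs had 1.51 and 0.478 RPKM, the second from 13 reads in the shallowest library (-1.77 ± 0.21, adjusted p = 0.00036). The log2 fold change of MC38 was -2.51 with a pseudocount of 0.1 RPKM. *Pdgfa* was lowest in LL2 CAFs, at 15.5 and 18.99 RPKM (-2.20 ± 0.21, adjusted p = 0.00036), and at 49.5 to 119 RPKM in the 6 other libraries. EO771 CAFs, with 105 and 119 RPKM, were called higher (1.31 ± 0.21, adjusted p = 0.0019), as were MC38 CAFs with 105 and 67.1 RPKM (0.76 ± 0.21, adjusted p = 0.015, and 0.098 without replicate 1). *Pdgfd* was at 2.54 and 2.87 RPKM in EO771 CAFs, above the 0.250 to 1.88 of the others, and its call there (0.92 ± 0.30, adjusted p = 0.036) was lost with edgeR on recovered reads (0.060) and in 5 of the 8 fits that left out a library, those without either EO771 library among them.

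Between CAF models, the highest mean was 2.33 times the lowest for *Pdgfra* and 2.30 times for *Pdgfrb*, and B16, the lowest model for both in tumors, has no CAF libraries. *Pdgfra* was at 40.2 and 39.3 RPKM in LL2, 31.4 and 29.6 in EO771, 18.4 and 27.5 in Pan02 and 19.8 and 14.3 in MC38 CAFs. It was higher in LL2 CAFs (0.78 ± 0.17, adjusted p = 0.013) and lower in MC38 CAFs (-0.80 ± 0.17, adjusted p = 0.0056), and the first call was lost without either LL2 library (adjusted p = 0.10 for each). *Pdgfrb* ran from 24.8 and 27.7 RPKM in LL2 CAFs to 82.3 and 38.2 in MC38 CAFs. Its call in LL2 CAFs (-0.92 ± 0.27, adjusted p = 0.036) was lost in 5 of the 8 fits that left out a library. The 2 MC38 libraries were far apart, and *Rgs5*, a pericyte gene, was too (96.6 and 24.6 RPKM).

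*Hgf* split the CAF models into pairs. MC38 CAFs had 7.60 and 7.56 RPKM and LL2 CAFs 6.15 and 6.41, while EO771 CAFs had 1.18 and 0.970 and Pan02 CAFs 0.753 and 1.15. Within each pair the models did not differ at the threshold (adjusted p = 0.23 and 0.62). The log2 fold change was 1.48 ± 0.12 in MC38 (adjusted p = 8.0e-05), 1.16 ± 0.12 in LL2 (adjusted p = 0.00055), -1.26 ± 0.12 in EO771 (adjusted p = 0.00023) and -1.38 ± 0.12 in Pan02 CAFs (adjusted p = 0.00010).

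*Met* had nearly the opposite order, with 10.7 and 15.1 RPKM in Pan02, 7.75 and 8.27 in LL2, 6.09 and 6.12 in EO771 and 0.862 and 1.17 in MC38 CAFs. It was higher in Pan02 CAFs (1.44 ± 0.15, adjusted p = 0.00019) and lower in MC38 CAFs (-2.25 ± 0.15, adjusted p = 3.5e-05). The call in LL2 CAFs (0.63 ± 0.15, adjusted p = 0.015) was lost without either LL2 library (0.093 and 0.13). The 7 epithelial genes summed to 886 to 1172 RPKM in Pan02, 495 to 502 in EO771, 207 to 213 in LL2 and 2.16 to 4.85 in MC38 CAFs. In EO771 CAFs this sum was nearly all *Krt8* (492 and 495 RPKM). *Epcam*, also on the list, was at most 2.46 RPKM in any CAF library. Pan02 was thus highest and MC38 lowest for both *Met* and the epithelial sum. What part cells with those genes have in the *Met* values was not tested.

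*Fgf10* was at 2.53 and 3.18 RPKM in LL2 CAFs against at most 0.910 RPKM elsewhere. It passed the filter of 1 RPKM in 2 libraries only through the LL2 libraries, the group where it is high, so its calls in CAFs are no independent support for that difference (LL2 1.41 ± 0.13, adjusted p = 0.00029, and 2.57 with a pseudocount of 0.1 RPKM). Pan02 CAFs had 0.291 and 0.0860 RPKM, from 21.5 and 7 reads (-0.85 ± 0.13, adjusted p = 0.0013). The call in EO771 CAFs (-0.56 ± 0.13, adjusted p = 0.0088), with 0.333 and 0.421 RPKM, was lost without either EO771 library. LL2 is part of the mean of the others here, so the log2 fold changes of Pan02 and EO771 carry its high level. Between pairs, EO771 CAFs did not differ at the threshold from MC38 (adjusted p = 0.053) or Pan02 CAFs (adjusted p = 0.28). Pan02 CAFs were below MC38 CAFs (adjusted p = 0.01). *Fgf7* was at 7.85 and 8.76 RPKM in LL2, 8.84 and 6.22 in Pan02, 5.65 and 6.19 in MC38 and 3.87 and 6.63 in EO771 CAFs. No pair of CAF models differed for *Fgf7* at the threshold.

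By model, 5 of the 10 genes were higher and 2 lower in LL2 CAFs, beside 14.7% and 18.3% of all genes. EO771 CAFs had 2 higher and 3 lower (24.5% and 27.9% of all genes), MC38 CAFs 2 and 4 (28.6% and 31.3%), and Pan02 CAFs 3 and 2 (27.1% and 26.5%). *Fgf10*, which passed the filter only through the LL2 libraries, is counted as higher in LL2 CAFs and as lower in EO771 and Pan02 CAFs. The count for LL2 fell from 7 to 3 when either LL2 library was left out, and that for EO771 from 5 to 3 when EO771 replicate 1 or either LL2 library was left out. Without an LL2 library *Fgf10* no longer passed the filter and was not tested, which accounts for 1 of the calls lost in each model. With edgeR on recovered reads, EO771 CAFs also had 3 calls.

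The 2 tables were normalized separately, so levels in CAFs and whole tumors of the same model stand here side by side in RPKM with no test. The transcript with the largest mean was not the same in both tables for *Pdgfc*, *Pdgfd* and *Hgf*. In LL2, *Pdgfrb* had a mean of 26.2 RPKM in CAFs and 4.70 in tumors, *Hgf* 6.28 and 1.83, and *Pdgfra* 39.7 and 23.7. In MC38, *Pdgfrb* had 60.3 and 16.4 RPKM but *Hgf* 7.58 and 13.3, and every CAF library was below every tumor for *Hgf*. *Met* was lower in CAFs than in tumors in EO771 (6.11 and 17.4 RPKM), LL2 (8.01 and 23.1) and MC38 (1.02 and 7.31), and overlapped in Pan02 (12.9 and 12.8). *Pdgfb*, which endothelial cells are known to make, had a lower mean in CAFs in all 4 models, from 14.4 and 26.5 RPKM in Pan02 to 0.994 and 11.1 in MC38. Among CAFs, Pan02 had the most *Pdgfb* and the lowest sum over 8 endothelial genes (4.87 to 8.97 RPKM). What part endothelial cells have in these values was not tested.

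EO771 gave the widest contrast for the FGF ligands. *Fgf7* had a mean of 5.25 RPKM in EO771 CAFs and 0.213 in EO771 tumors, and *Fgf10* 0.377 and 0.0164. The 2 genes were thus found in the sorted cells of a model whose whole tumors had almost none.

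Every CAF library was above every tumor for 5 of the 10 genes in EO771 and in LL2, for 4 of MC38 and for 0 of Pan02, beside 18.2%, 15.2%, 20.8% and 12.1% of 15696 genes with at least 1 RPKM in some library. Every CAF library was below every tumor for 3, 4, 4 and 2 genes, beside 60.7%, 50.1%, 47.1% and 40.9%. With TPM in place of RPKM, a choice made after the data were seen, the counts for Pan02 were 2 above and 1 below. *Pdgfra*, *Pdgfrb* and *Fgf10* were above in each of EO771, LL2 and MC38 and overlapped in Pan02, the model in which *Fap* overlapped too.

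**Figure D4:**
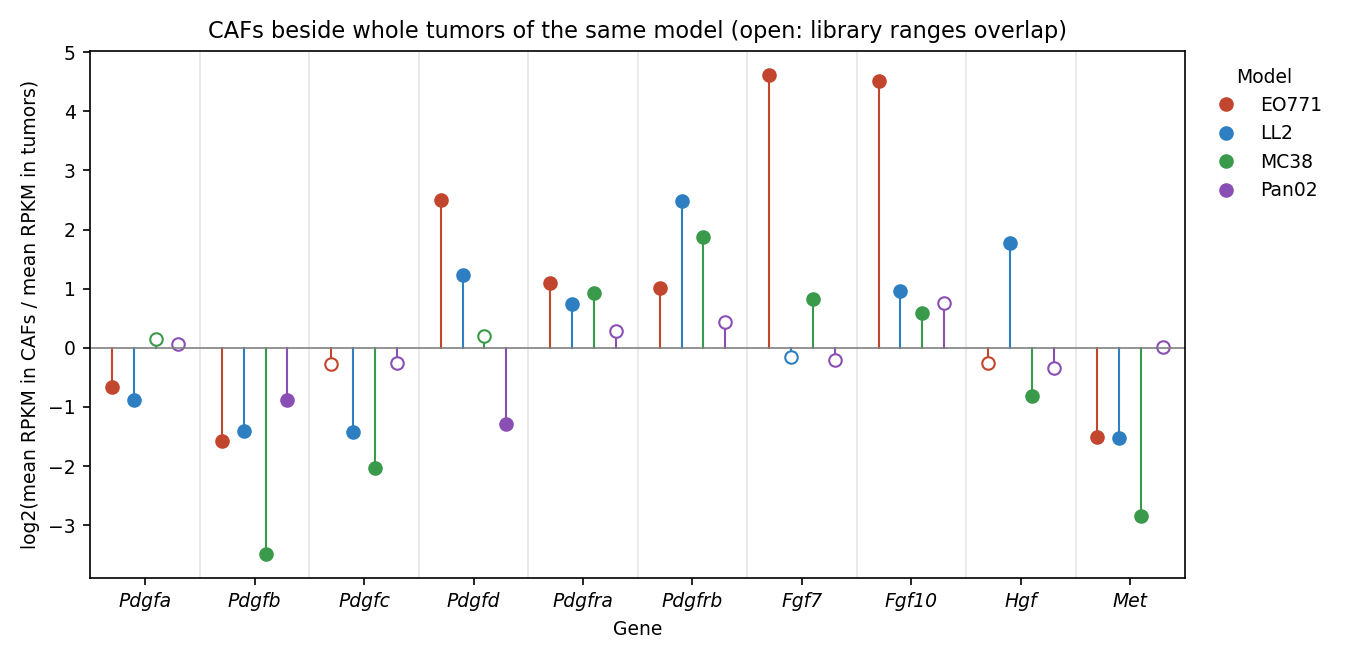
Log2 ratio of the mean RPKM in FAP+ CAFs to that in whole tumors, by gene and model; open points mark genes whose CAF and tumor libraries overlap. *Fgf7* (4.62) and *Fgf10* (4.52) in EO771 are the highest points, *Pdgfb* in MC38 (-3.48) is the lowest, and 8 of 10 Pan02 points are open.

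Ratios of genes within a library hardly depend on its total. *Pdgfra* to *Pdgfrb* and *Hgf* to *Met*, each as log2 of RPKM + 0.1, were set for each model against the remaining libraries of its table. The permutations moved single libraries as if all were exchangeable, although libraries of a model share their cell line. The p-values therefore depend largely on where a model stands in the order of models. In tumors, the receptor ratio was 2.30 ± 0.48 in LL2 (SD, n = 3; exact permutation test, 2-sided, p = 0.0022, adjusted p = 0.011 over 10 tests), with *Pdgfra* ahead in 3 of 3 tumors and *Pdgfrb* ahead in 12 of the 12 others. It was -2.84 ± 0.85 in B16 (exact p = 0.0066, adjusted p = 0.016), and -0.41 ± 0.15, -0.86 ± 0.09 and -1.22 ± 0.74 in EO771, MC38 and Pan02, which did not pass. The call in B16 was lost with a pseudocount of 1 RPKM (adjusted p = 0.15).

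The ratio of *Hgf* to *Met* set B16 and MC38 tumors at opposite ends. It was -9.87 ± 0.45 in B16 tumors (exact p = 0.0022, adjusted p = 0.011) and 0.85 ± 0.38 in MC38 tumors (exact p = 0.0044, adjusted p = 0.015). MC38 tumors were the ones with more *Hgf* than *Met* per length, in 3 of 3, and the 12 other tumors lay between -10.4 and -1.97.

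In CAFs the smallest exact p for 2 of 8 libraries is 0.036, so no ratio could pass after adjustment over 8 tests. *Pdgfra* to *Pdgfrb* was 0.60 ± 0.09 in LL2 CAFs (SD, n = 2; exact p = 0.036, adjusted p = 0.14) and between -2.05 and -0.27 in the 6 other libraries. *Hgf* to *Met* was 2.80 ± 0.29 in MC38 CAFs (exact p = 0.036, adjusted p = 0.14), -0.35 ± 0.02 in LL2, -2.41 ± 0.18 in EO771 and -3.63 ± 0.04 in Pan02 CAFs. The models at the upper end, LL2 for the receptors and MC38 for *Hgf* to *Met*, were those of the tumor data.

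**Figure D5:**
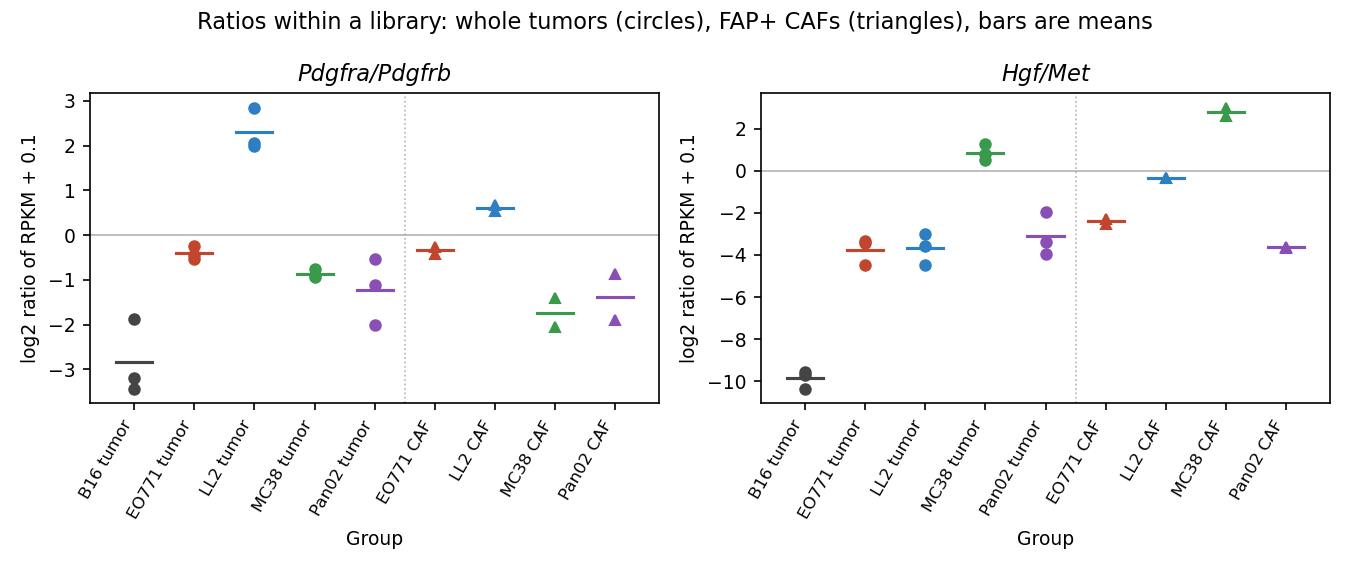
Log2 ratio of *Pdgfra* to *Pdgfrb* (left) and of *Hgf* to *Met* (right) in each library, with whole tumors as circles, FAP+ CAFs as triangles and means as bars. LL2 tumors (1.98 to 2.85) are the tumors above 0 on the left, and MC38 tumors (0.51 to 1.25) those above 0 on the right.

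Genes whose log2 values over the 15 tumors were among the most like those of each receptor or of *Hgf* are given as a description, since tumors of a model share their cell line. For *Pdgfra* they included *Ahnak* (Pearson r = 0.99), *Scara3* (0.98) and *Sgms2* (0.97), and for *Pdgfrb* *Msrb3* (0.96) and *Postn* (0.96), a matrix protein of activated fibroblasts. For *Hgf* they included *Pcdh18* (0.96), *Slc39a8* (0.95) and *Chst2* (0.95), and for *Met* *Tex2* (0.98) and *Tia1* (0.98). *Pdgfra* and *Pdgfrb* had an r of 0.49 with each other in tumors and -0.65 over the 8 CAF libraries. In CAFs, *Pdgfra* was most like *Lman1* (0.98), *Rpl7* (0.98) and *Gm38431* (0.98), and *Pdgfrb* most like *Tfeb* (0.98), *Fmod* (0.97) and *Bscl2* (0.96).

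Genes that act with these ligands and receptors were taken from 8 lists of 85 genes. These lists were chosen with earlier results of these data known and got no test of their own. In tumors, 77 were tested and 71 (92.2%) differed among models, and in CAFs 72 and 66 (91.7%), beside the 91.1% and 80.4% of all genes given above. B16 tumors had 9 listed genes higher and 42 lower, beside 31.9% and 31.6% of all genes, and MC38 CAFs had 8 higher and 49 lower, beside 28.6% and 31.3%. Pan02 had 39 higher and 10 lower in tumors (32.5% and 28.1% of all genes) and 38 and 13 in CAFs (27.1% and 26.5%).

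Of the FGF receptors, *Fgfr1*, the form that fibroblasts carry, was the most abundant. It had a mean of 168 RPKM ± 21 in LL2 and of 5.27 ± 1.54 in B16 tumors (SD, n = 3; log2 fold change -4.38 in B16, adjusted p = 2.0e-09). In CAFs it was at 157 ± 8 RPKM in LL2 and at 35.2 ± 8.5 in Pan02 (SD, n = 2; -1.80 in Pan02, adjusted p = 7.5e-05). *Fgfr2*, named here as the receptor of FGF7 and FGF10, was low in all tumors, at most 0.942 RPKM ± 0.665 in Pan02 (3.19, adjusted p = 1.8e-05), and did not pass the filter in CAFs. The decoy *Fgfrl1* was highest in MC38 tumors (0.88, adjusted p = 5.6e-06) and MC38 CAFs (0.69, adjusted p = 0.0012), as was *Fgfr3* in tumors (1.86, adjusted p = 0.0014). Of 7 further members of the FGF family tested in tumors, 5 were higher in Pan02, beside 32.5% of all genes. Among them were *Fgf11* (2.77, adjusted p = 3.3e-08) and *Fgf18* (2.57, adjusted p = 0.003). *Fgf1* had a mean of 3.98 RPKM ± 1.25 in B16 tumors (2.65, adjusted p = 0.0016), and of 3.63 ± 5.20 in Pan02 tumors, which ran from 0.413 to 9.63. In CAFs, *Fgf11* was lower in EO771 (-0.96, adjusted p = 0.0044), *Fgf2* was lower in MC38 (-0.55, adjusted p = 0.019) and *Fgf18* did not differ among models at the threshold (adjusted p = 0.69).

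Around HGF, the inhibitors of its activating proteases stood out in Pan02. *Spint2* was at 167 ± 55 RPKM in Pan02 tumors and at most 3.99 in the mean of any other model (5.99, adjusted p = 3.5e-10), and at 62.9 ± 10.4 RPKM in Pan02 CAFs (4.47, adjusted p = 1.2e-05). *Spint1* was higher in Pan02 tumors as well (2.54, adjusted p = 1.5e-05). *Mst1*, a relative of HGF, was highest in EO771 tumors (3.84, adjusted p = 3.8e-09) and in MC38 CAFs (2.73, adjusted p = 2.0e-05), and its receptor *Mst1r* was higher in EO771 CAFs (1.79, adjusted p = 0.0023). In this list 6 of 8 tested genes were higher and 1 lower in Pan02 tumors, beside 32.5% and 28.1% of all genes.

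Of 9 genes for PDGF processing and co-receptors, 7 were lower and 1 higher in B16 tumors (31.6% and 31.9% of all genes) and 8 lower and 0 higher in MC38 CAFs (31.3% and 28.6%). *Furin*, which cleaves the PDGF-A and PDGF-B precursors, was highest in EO771 tumors (1.12, adjusted p = 3.9e-06) and EO771 CAFs (1.033, adjusted p = 0.00041), the model with the most *Pdgfa*. *Plau*, the urokinase that can activate PDGF-D, was highest in LL2 tumors (2.12, adjusted p = 2.3e-06) and LL2 CAFs (2.15, adjusted p = 0.015). *Lrp1*, a receptor that associates with PDGFRβ, was highest in Pan02 tumors (1.74, adjusted p = 6.0e-06) and was lower in MC38 CAFs (-0.87, adjusted p = 0.034).

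Most of the listed heparan sulfate proteoglycans can hold these growth factors at the cell surface. In B16 tumors 8 of the 10 listed genes were lower, beside 31.6% of all genes. *Sdc1* was at 601.1 ± 27 RPKM in EO771, 446 ± 90 in Pan02 and 32.3 ± 3.2 in B16 tumors, and at 413 ± 45 in Pan02, 323 ± 4 in EO771 and 45.6 ± 21.3 in MC38 CAFs. *Sdc4* led in EO771 in both tables, and *Gpc1* was lowest in MC38 in both (-1.18, adjusted p = 3.9e-06 in tumors, and -1.50, adjusted p = 0.00025 in CAFs).

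Downstream, *Grb2*, the adaptor that links receptors to RAS, did not differ among tumor models at the threshold (adjusted p = 0.47). In MC38 CAFs, however, 12 of 14 adaptor and proximal signalling genes were lower, as were 13 of 14 negative regulators. Of all genes, 31.3% were lower there. *Grb2* (-0.83), *Crk* (-1.08), *Shc1* (-0.61), *Errfi1* (-2.94), *Dusp5* (-3.60) and *Dusp6* (-1.20) were among the listed genes that were lower. The same negative regulators were higher in LL2 tumors for 10 of 14 genes, beside 23.3% of all genes, with *Dusp6*, an ERK phosphatase that ERK signalling induces, at 1.21 (adjusted p = 5.6e-06), *Errfi1* at 1.62 (adjusted p = 7.4e-05) and *Dusp5* at 1.24 (adjusted p = 0.018). The highest means of *Errfi1* and *Dusp5* were those of Pan02 (128 RPKM ± 29) and EO771 tumors (226 ± 18). *Shc1* and *Crk* differed little between tumors, with log2 fold changes between -0.43 and 0.44. Among the listed genes that respond to MAPK signalling, *Myc* was higher in LL2 (1.98, adjusted p = 8.3e-08) and EO771 tumors (1.77, adjusted p = 1.6e-07). *Ier3* was higher in EO771 tumors (1.87, adjusted p = 0.00013) and EO771 CAFs (2.08, adjusted p = 0.0014), and *Ccnd1* in EO771 tumors (0.77, adjusted p = 8.4e-06). *Fos* and *Egr1* were higher in Pan02 CAFs (1.46, adjusted p = 0.015, and 1.29, adjusted p = 0.0069), where *Fos* had an SD of 420 RPKM around a mean of 603.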

How the data were processed

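RNA from 15 whole tumors and 8 FAP+ CAF sorts was sequenced as poly(A), unstranded libraries. Per the labels and methods, the authors aligned reads with STAR 2.5.0c to mm10 and counted them with HOMER. The tumor table the authors deposited holds expected counts, in steps of 0.5 and with no normalization, and the CAF table the authors deposited holds RPKM values. The 5 columns of CT26 samples and 2 rows that name no gene were not used.

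Of several transcripts of a gene, that with the largest mean was used. Tumor counts were rounded, passed through filterByExpr and TMM scaling, and fitted in 1 model of 15 libraries with the quasi-likelihood test of edgeR 4.0.16 (15722 genes). CAF values were tested with limma 3.58.1 as log2(RPKM + 1), for genes with at least 1 RPKM in 2 libraries (13598 genes), with a variance trend. A call was a Benjamini-Hochberg adjusted p under 0.05 with no limit on the fold change. Recovered reads rest on 99.4% to 100.0% of low CAF values being multiples of 0.5 reads, within 0.1 of that step. Ratios were compared with 2-sided exact permutation tests, adjusted over 10 tests in tumors and 8 in CAFs. Intervals cover counting error only. Scripts were tested on simulated counts.

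The genes, lists and tests were chosen with earlier results of these data known. Of each pathway list, the 3 tested genes with the highest mean per length were named, and for likeness the 3 genes with the highest r among those with at least 10 CPM or 5 RPKM in the highest model, of which some are not reported here. Some titles write Pan01 where the cell line label says Pan02, and both are called Pan02 here. Replicate numbers were not used to pair the libraries in the main fits. The correlation of deviations of same-numbered libraries ran from -0.23 to 0.30 in tumors and from -0.20 to 0.40 in CAFs. Its median in CAFs was 0.16 for same-numbered and -0.16 for other-numbered libraries. With 2 libraries per model these values mirror each other, so the check cannot tell whether CAF sorts of the same number belong together. Alternatives were DESeq2 1.42.0, other scalings, filters, pseudocounts and transcripts, a replicate block and leaving out each library, with R 4.3.3 and Python 3.11.15.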

Additional observations from a re-analysis of the deposited data

How the results depend on the processing

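With 3 tumors and 2 CAF libraries per model, single libraries decided several of the smaller differences. All 10 genes differed among tumor models under every alternative run, and 6 to 9 did among CAF models. The replicate block gave 10, 9, 8, 7, 5 and 9 genes (all models together, B16, EO771, LL2, MC38, Pan02) and 75 pairs in tumors, and 8, 5, 7, 6 and 6 genes (all models together, EO771, LL2, MC38, Pan02) and 35 pairs in CAFs. Whether the replicate numbers pair the libraries is not known.

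Signs that turned were those of small, uncalled log2 fold changes: *Pdgfd* in MC38 tumors was 0.055 with total-count scaling, *Pdgfb* in LL2 CAFs 0.052 with a pseudocount of 0.1 RPKM and 0.038 with edgeR on recovered reads, and *Fgf10* in MC38 CAFs 0.378 and 0.480 under the same settings. The stricter filter (a mean of at least 5 RPKM), which removed *Pdgfd*, *Fgf10* and *Hgf*, left 2 calls in EO771 and 3 in Pan02 CAFs, and recovered reads gave 3 in EO771 CAFs, against 5 in each. The ratio of *Pdgfra* to *Pdgfrb* in B16 tumors differed by -1.70 with a pseudocount of 1 RPKM (exact permutation test, adjusted p = 0.15). With TPM, which changes only the scaling of each library, 2 genes in Pan02 were above and 1 below. The cause of the other changes was not tested.

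Leaving out 1 library gave, in tumors, -0.379 to 0.208 for *Pdgfb* and -0.463 to 0.294 for *Pdgfd* in MC38, and -0.036 to 0.577 for *Hgf* in LL2. In CAFs it gave 3 to 6 calls in EO771 and 3 to 7 in LL2. For Pan02 CAFs the ranges were -0.143 to 0.398 (*Pdgfa*), -0.548 to 0.006 (*Pdgfra*) and -0.019 to 0.428 (*Fgf7*), for LL2 CAFs -0.317 to 0.098 (*Pdgfb*) and -0.385 to 0.016 (*Pdgfd*), and for MC38 CAFs -0.964 to 0.238 (*Pdgfd*), -0.035 to 1.052 (*Pdgfrb*) and -0.057 to 0.052 (*Fgf10*). Differences of the *Pdgfra* to *Pdgfrb* ratio ran from -3.275 to -2.485 in B16 and from -0.010 to 0.562 in EO771 tumors, and those of *Hgf* to *Met* from -0.386 to 0.672 in EO771, from -0.299 to 0.758 in LL2 and from 5.471 to 6.236 in MC38 tumors. Without a library of the model itself, fewer arrangements remain for the ratio tests, so a call lost there reflects the smaller design. *Fgf10* in LL2 CAFs moved from 1.41 to 2.87 with edgeR on recovered reads, and *Met* in MC38 CAFs from -2.25 to -3.12. Depth limits *Fgf10* in EO771 tumors, at 1 count each.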

Other observations

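Genes within 1 Mb of *Met* on chromosome 6 were looked at after its level in B16 tumors was seen. *Cttnbp2* had a mean of 15.3 CPM in B16 tumors against at most 2.91 in any other tumor (edgeR, log2 fold change 4.32, adjusted p = 8.9e-07), and *Cftr*, an epithelial chloride channel, 5.15 against at most 0.282 CPM (7.37, adjusted p = 6.2e-07). *Gm4876* had 5.52 against at most 0.408 CPM (4.56, adjusted p = 4e-07). *St7* (0.50, adjusted p = 0.00094) and *Cav2* (0.32, adjusted p = 0.0077) were higher by less. Of the others, *Cav1*, the main coat protein of caveolae, had 45.7 CPM in B16 tumors against 142 to 585 CPM elsewhere (-2.46, adjusted p = 9.3e-09), *Tes* (-0.87, adjusted p = 0.00027) and *Tfec* (-2.20, adjusted p = 0.0058) were lower, and neither *Wnt2* (-2.20, adjusted p = 0.051) nor *Capza2*, the next gene after *Met* (0.18, adjusted p = 0.10), was called.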
